A study of Homo sapiens with 14 samples.

Results

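Small nucleolar RNA (snoRNA) host genes are transcribed into long spliced RNAs whose introns carry the snoRNAs. The 10 noncoding hosts GAS5, ZFAS1, SNHG1, SNHG5, SNHG6, SNHG7, SNHG8, SNHG12, SNHG15 and SNHG16 were followed here across all groups of a ZBP1 knockdown study in 2 myeloma cell lines. They were chosen by name, as noncoding transcripts said to share the start type of ribosomal protein genes, and not by their values. Each name matched 1 row of both count tables, which makes 10 of the 58051 genes listed, and all 10 passed the filters on low values in every fit.

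The study measured poly(A)-selected RNA in 14 libraries, 2 for each of 7 groups. MM1.S and H929 are established human plasma cell myeloma lines, each carried as a culture in RPMI medium with 10% FBS, and every group, controls included, was transduced with a lentivirus. MM1.S had 3 groups, namely a scramble control, the hairpin anti-ZBP1 shRNA 1 and the hairpin anti-ZBP1 shRNA 2. H929 had 4 groups, because each of the 2 hairpins (here shRNA1 and shRNA2) had a scramble control of its own. ZBP1 is a sensor of nucleic acids in the Z conformation. The labels do not tell whether the paired libraries were grown separately, and p-values here rest on a spread that could be technical. The columns taken as shRNA2 in each line, and 1 scramble column in H929, were identified by elimination, because no other column names those samples.

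When a host RNA is spliced, the snoRNA is trimmed out of the excised intron and enters a ribonucleoprotein that guides the modification of ribosomal and spliceosomal RNA. Box C/D snoRNAs guide ribose methylation and box H/ACA snoRNAs guide the conversion of uridine to pseudouridine. The spliced exons of several hosts, GAS5 and ZFAS1 among them, are known to be exported, bound by ribosomes and degraded by nonsense-mediated decay. Many hosts begin, as ribosomal protein mRNAs do, with a C followed by a run of pyrimidines, the terminal oligopyrimidine (TOP) start through which mTOR and LARP1 control the translation and stability of ribosomal protein mRNAs.

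The starts of the hosts are printed because the start type is what the genes were grouped by. RefSeq promoter windows (GRCh38.p14) were available for 8 of the 10 genes, and SNHG6 and SNHG15 are named only. Each window of 60 bases runs from 40 bases before the RefSeq start to 20 bases from it, on the gene's own strand, and capitals mark the longest run of C and T that opens with a C at a start annotated within it. For GAS5, where the RefSeq start has no such run, the first 40 bases of a GENCODE 29 transcript are shown, whose start at position 173867989 of chromosome 1 is shared by 6 transcripts.
ZFAS1, chr20:49278602-49278661, plus strand: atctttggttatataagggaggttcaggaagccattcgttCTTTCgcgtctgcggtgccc
SNHG1, chr11:62855866-62855925, minus strand: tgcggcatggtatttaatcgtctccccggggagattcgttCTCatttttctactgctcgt
SNHG5, chr6:85678714-85678773, minus strand: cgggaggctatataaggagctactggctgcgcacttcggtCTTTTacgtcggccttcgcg
SNHG7, chr9:136728165-136728224, minus strand: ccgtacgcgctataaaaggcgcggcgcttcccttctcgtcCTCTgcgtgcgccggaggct
SNHG8, chr4:118278722-118278781, plus strand: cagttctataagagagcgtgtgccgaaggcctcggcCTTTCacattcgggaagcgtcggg
SNHG12, chr1:28581854-28581913, minus strand: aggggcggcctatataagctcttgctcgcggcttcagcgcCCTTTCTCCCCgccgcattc
SNHG16, chr17:76557724-76557783, plus strand: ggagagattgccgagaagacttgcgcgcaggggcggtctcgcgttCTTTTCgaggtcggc
GAS5, GENCODE 29 transcript, minus strand: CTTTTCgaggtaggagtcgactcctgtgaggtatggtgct

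The run in capitals was 11 bases in SNHG12, 6 in GAS5 and SNHG16, 5 in ZFAS1, SNHG5 and SNHG8, 4 in SNHG7 and 3 in SNHG1. A C followed by at least 4 bases that are C or T stood at the RefSeq start itself in 3 of the 8 genes (ZFAS1, SNHG5 and SNHG12), or 37.5%. The same held for 47 of 63 ribosomal protein genes with a window (74.6%) and for 1404 of all 27305 genes with one (5.14%). Counting every start that GENCODE 29 annotates, 7 of the 8 genes had at least 1 such start, as did 66 of 79 ribosomal protein genes and 6.58% of all genes. Of the 82 annotated starts of the 8 genes 10 were of this type (12.2%), against 13.5% of the starts of ribosomal protein genes and 2.37% of those of all genes. The letters TATAA, on the gene's strand between 40 and 21 bases before the RefSeq start, were present in 5 of the 8 windows (ZFAS1, SNHG5, SNHG7, SNHG8 and SNHG12). They were present in 7 of 63 ribosomal protein windows (11.1%) and in 4.78% of all windows, and the reverse complement TTATA in 1 of the 8 and in 2.01% of all. These are matches of letters, not mapped starts or binding sites.

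The genes lie apart in the genome (GRCh38, GENCODE 29 annotation). GAS5 (ENSG00000234741) is at chr1:173863900-173868882, SNHG12 (ENSG00000197989) at chr1:28578538-28583132, SNHG5 (ENSG00000203875) at chr6:85660950-85678748 and SNHG6 (ENSG00000245910) at chr8:66921684-66926398. ZFAS1 (ENSG00000177410) is at chr20:49278178-49295738, SNHG1 (ENSG00000255717) at chr11:62851988-62855914 and SNHG16 (ENSG00000163597) at chr17:76557766-76565348. SNHG7 (ENSG00000233016) is at chr9:136721366-136728184, SNHG8 (ENSG00000269893) at chr4:118278709-118279823 and SNHG15 (ENSG00000232956) at chr7:44983023-44986961. Whether the counting used strand is not given in the sources used here, so reads of overlapping genes on the opposite strand cannot be told apart. Such a gene overlaps 30.6% of the exon bases of SNHG16, 29.3% of SNHG6 (MCMDC2) and 25.2% of SNHG7 (FAM69B). The share is 1.16% for GAS5 and 0.188% for SNHG12, and SNHG1, SNHG5, SNHG8 and SNHG15 overlap no gene other than their snoRNAs. ZNFX1, on the strand opposite ZFAS1, had a mean of 60.7 CPM (reads scaled to the library's total) in MM1.S and 187 in H929, more than ZFAS1 itself, so the counts of ZFAS1 are uncertain. MCMDC2 had 0.982 and 1.44 CPM.

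The depth was 20461980 to 28419331 reads in genes per library in MM1.S and 15926867 to 22254348 in H929. ZBP1, the targeted gene, fell in all 4 hairpin comparisons, with log2 values of -2.55 ± 0.152 (SE) with shRNA1 and -3.11 ± 0.156 with shRNA2 in MM1.S (edgeR, adjusted p = 3.47e-05 and 2.44e-05), and of -1.31 ± 0.0923 and -1.62 ± 0.0923 in H929 (limma, adjusted p = 8.64e-09 and 4.24e-09). The 8 plasma cell markers were present in every library, with a summed level of 3820 to 4004 CPM in MM1.S with shRNA2, 5004 to 6730 in the other MM1.S libraries and 7082 to 8207 in H929. All 8 fell with shRNA2 in MM1.S, against 21.7% of all genes, and with shRNA1 there 4 fell and 1 rose, against 19.7% and 17.8%. In H929, 5 fell and 3 rose with shRNA1, against 27.7% and 25.7% of all genes. With shRNA2 in H929, 5 fell and 0 rose, against 25% and 18%. Of 12 markers of other cell types, 7 or 8 stayed under 1 CPM in every group, CD3D, CD2, LYZ and CD14 among them. Others did not, such as the T cell marker CD3E, at 2.68 to 6.38 CPM in MM1.S and 6.83 to 31.2 in H929. HBB was at 3.24 to 7.28 CPM in MM1.S, and CSF1R and KRT8 reached 3.10 and 7.53 in H929. The sum was 15.9 to 46.1 CPM except with shRNA1 in H929, where it was 113 to 142, mostly COL1A1 and PECAM1. PECAM1 was present in every library, at 2.65 to 32.9 CPM in MM1.S and 7.55 to 86.4 in H929. Whether any of these reads came from other cells was not tested. The part of these markers in the results below was not tested. In bulk RNA, fewer cells of a kind and less RNA per cell cannot be told apart.

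GAS5 was the most abundant host in H929 per length of exon, in RPKM (reads scaled to the exon length and to the library's total). It stood at 230.3 ± 0.185 (SD, n = 2) in the scramble group for shRNA1, against 129.8 ± 7.78 for SNHG6 and 99.7 ± 5.05 for SNHG8, which followed it. SNHG5 (35.7 ± 2.75), SNHG1 (30.3 ± 1.04), ZFAS1 (26.4 ± 0.841) and SNHG7 (23.0 ± 2.36) came next, then SNHG16 (19.0 ± 0.451), SNHG12 (12.2 ± 0.485) and SNHG15 (9.06 ± 0.00301). The libraries of neighbours in this order did not overlap. GAS5 made up 50.7% of all reads on the 10 hosts there. In the MM1.S scramble group the order was different, with SNHG6 at 77.7 ± 5.88 RPKM, SNHG8 at 66.9 ± 5.58, GAS5 at 57.4 ± 0.68 and SNHG1 at 53.6 ± 5.14, where the libraries of GAS5 and SNHG1 overlapped. SNHG5 was at 39.6 ± 1.83, SNHG16 at 15.6 ± 0.377, SNHG12 at 11.3 ± 0.66, SNHG7 at 9.65 ± 0.698, ZFAS1 at 6.15 ± 0.838 and SNHG15 at 5.65 ± 0.238, the last 2 overlapping. GAS5 there held 23.5% of the reads on the 10 hosts and SNHG1 22.7%. The exon length used is the union over all annotated transcripts of a gene. It is 3631 bases for GAS5, 3756 for SNHG1, 1247 for SNHG6 and 923 for SNHG8. By reads alone, the MM1.S scramble group had GAS5 at 208 CPM, SNHG1 at 201, SNHG5 at 111, SNHG6 at 96.9 and SNHG8 at 61.7. The order of the hosts thus depends on that length. Levels of the 2 lines come from tables normalised separately and were not tested against each other.

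**Figure D1:**
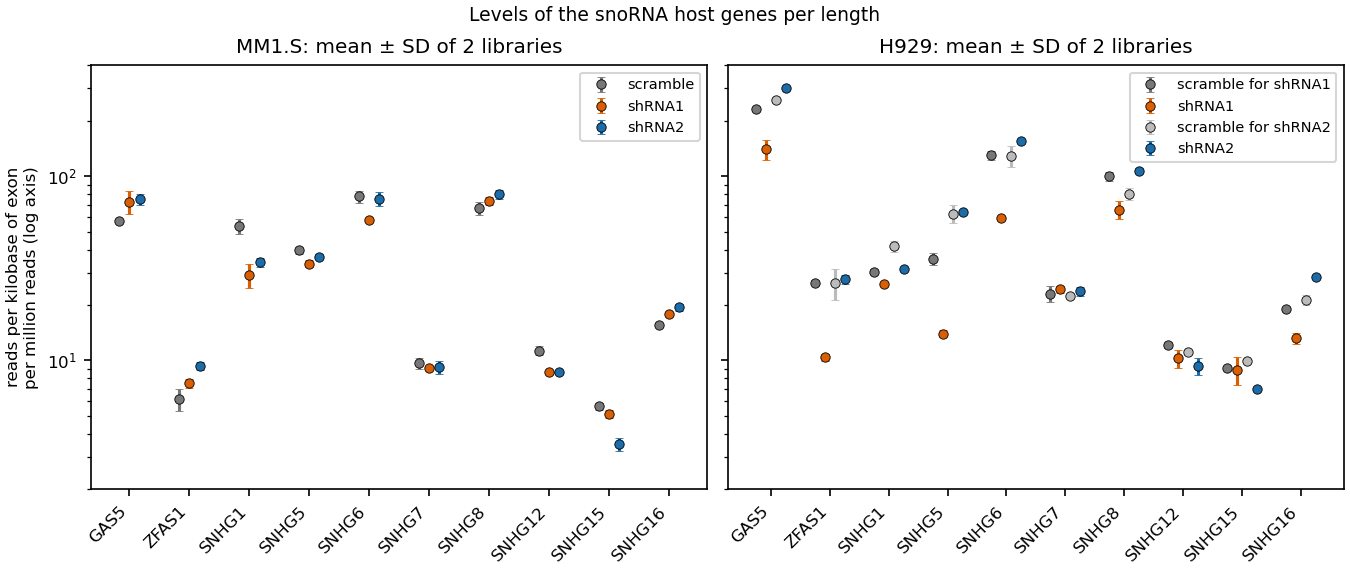
Level of each host per group, in RPKM on a log axis, as the mean ± SD of 2 libraries, for MM1.S (left) and H929 (right). GAS5 tops the H929 groups, at 140.0 with shRNA1 and 230.3 to 299 in the other groups, while SNHG15 is the lowest host in every group.

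The response of the hosts fell into several patterns. With shRNA1 in H929, 8 of the 10 hosts fell, against 53.4% of all genes tested called in either direction and 27.7% called lower, and SNHG7 and SNHG15 did not pass. With shRNA2 in H929, 3 fell (SNHG1, SNHG12 and SNHG15) and 2 rose (SNHG8 and SNHG16), against 43% of all genes called, 25% lower and 18% higher. With shRNA1 in MM1.S, 4 fell (SNHG1, SNHG5, SNHG6 and SNHG12) and 0 rose, against 37.5% of all genes called, 19.7% lower and 17.8% higher. With shRNA2 in MM1.S, 3 fell (SNHG1, SNHG12 and SNHG15) and ZFAS1 rose, against 36.6% of all genes called, 21.7% lower and 14.9% higher. These fits hold no replicate block. The shares called in either direction in MM1.S and with shRNA2 in H929 are near the background of all genes. With the replicate number as a block, 1 host was higher and 6 lower with shRNA1 in MM1.S, against 28.4% and 30.9% of all genes. With shRNA2 there, 3 were then higher and 5 lower, against 26.8% and 32%. The median of the 10 log2 fold changes was -0.72 with shRNA1 in H929, against -0.01 over all genes, and -0.08, -0.23 and -0.16 with shRNA2 in H929 and shRNA1 and shRNA2 in MM1.S. SNHG1 and SNHG12 were the hosts called lower in all 4 comparisons. The 2 MM1.S comparisons share their scramble libraries.

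**Figure D2:**
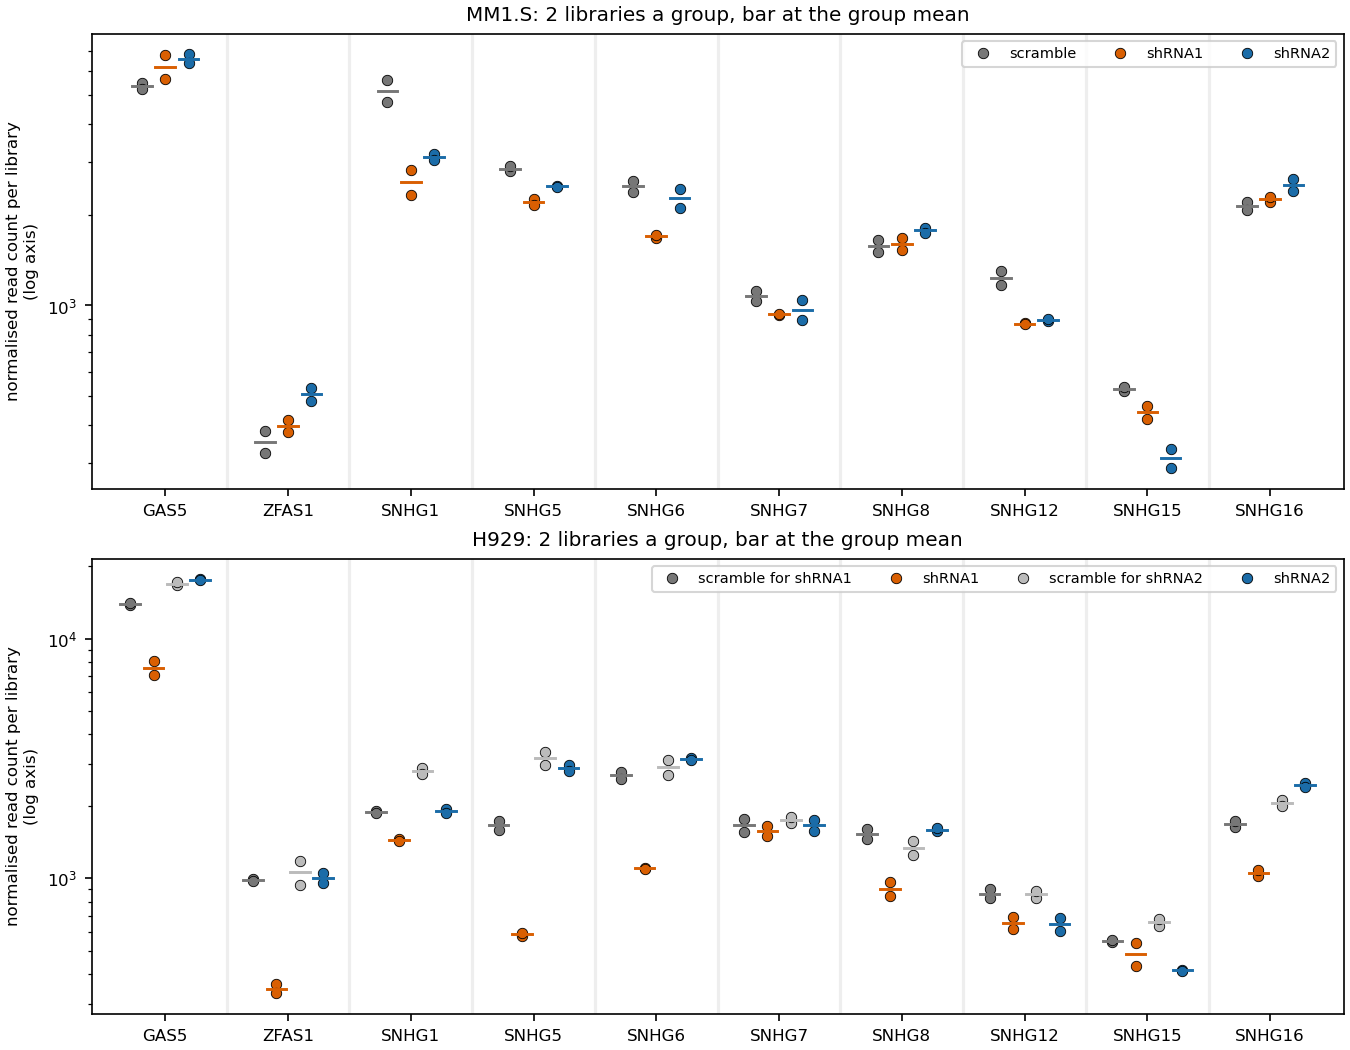
Normalised read count of each host in every library, on a log axis, with a bar at the mean of the 2 libraries of each group, for MM1.S (top) and H929 (bottom). In H929 the shRNA1 libraries of GAS5, ZFAS1, SNHG1, SNHG5, SNHG6, SNHG8 and SNHG16 lie below all other libraries of the line. SNHG12 is lower with both hairpins.

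**Figure D3:**
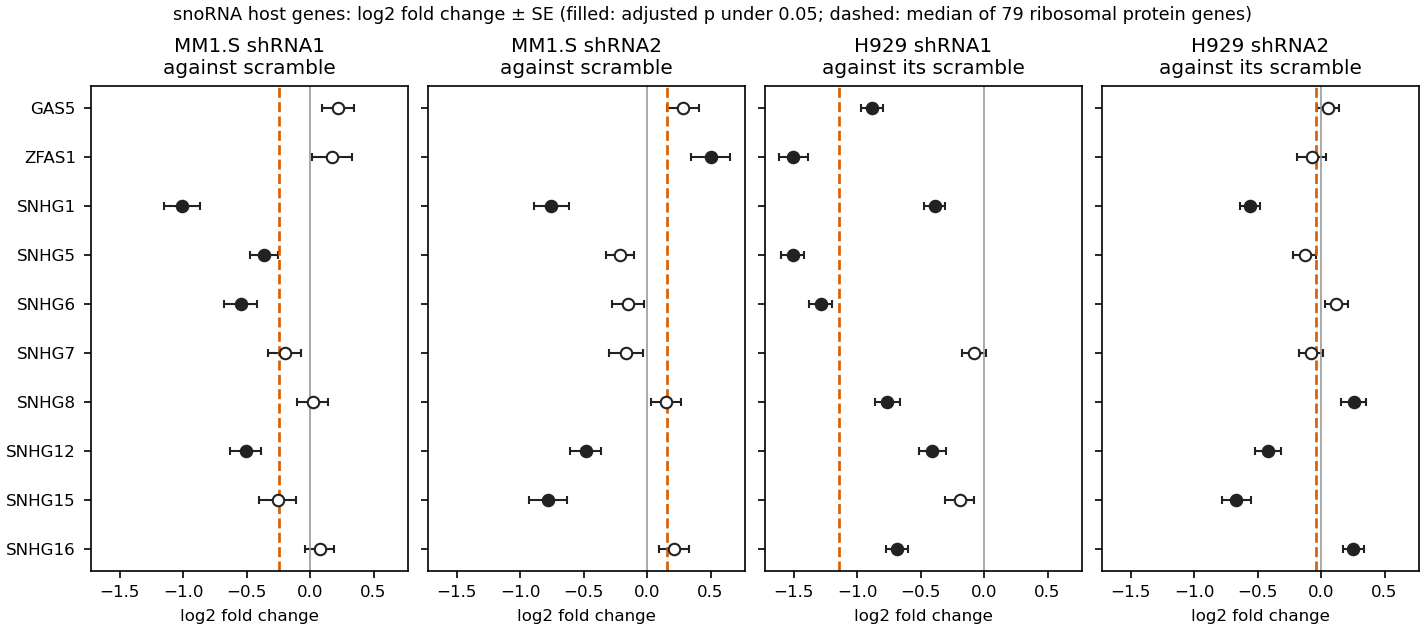
Log2 fold change ± SE of each host in the 4 hairpin comparisons, with filled points at adjusted p under 0.05 and a dashed line at the median of the 79 ribosomal protein genes. The hosts spread from -1.51 to -0.08 with shRNA1 in H929, where the ribosomal protein median is -1.14, and SNHG1 and SNHG12 are filled and below 0 in every panel.

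Among the box C/D hosts, GAS5 (growth arrest specific), an RNA that accumulates when growth stops and that can bind the glucocorticoid receptor, was measured most deeply. Its normalised read counts in H929 were 13746 and 14074 in the scramble for shRNA1, 7029 and 8103 with shRNA1, 16663 and 17264 in the scramble for shRNA2, and 17649.6 and 17555 with shRNA2. The shRNA1 libraries were the lowest of the line, and the shRNA2 libraries lay just above their own scramble. GAS5 fell to 54.3% of its control with shRNA1 (log2 -0.88 ± 0.0883, limma adjusted p = 4.34e-07), and with shRNA2 its value was 0.05 ± 0.0883 (adjusted p = 0.654). In MM1.S its counts were 5458 and 5234 with scramble, 6783 and 5640 with shRNA1 and 6811 and 6375 with shRNA2. All 4 hairpin libraries lay above both scramble libraries there, and the log2 values of 0.22 ± 0.128 and 0.28 ± 0.128 did not pass in the edgeR fit (adjusted p = 0.214 and 0.12). With the replicate number as a block both passed as higher, at 0.21 and 0.28 (edgeR, adjusted p = 0.0138 and 0.00293).

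ZFAS1, the host of SNORD12, SNORD12B and SNORD12C, named for its position antisense to the start of ZNFX1, fell most among the hosts together with SNHG5. Its H929 counts were 995 and 975 in the scramble for shRNA1 and 364 and 331 with shRNA1, 35.3% of control (log2 -1.50 ± 0.114, limma adjusted p = 2.03e-08). The shRNA2 libraries of H929, at 1054 and 953, lay inside the range of their scramble, 1187 and 937 (-0.07 ± 0.114, limma adjusted p = 0.632). In MM1.S the direction was the opposite, with 324 and 383 reads with scramble, 379.6 and 418 with shRNA1 and 481 and 532 with shRNA2. ZFAS1 rose with shRNA2 there (0.50 ± 0.156, edgeR adjusted p = 0.038), and the shRNA1 libraries overlapped the scramble (0.17 ± 0.157, edgeR adjusted p = 0.411). The rise with shRNA2 did not pass without scramble replicate 1 (edgeR adjusted p = 0.162) or without either shRNA2 library (0.0994 and 0.207), nor with only the compared groups in the fit (0.0512).

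SNHG5, the host of SNORD50 family snoRNAs, had 1735 and 1595 reads in the H929 scramble for shRNA1 and 576 and 592 with shRNA1. It fell to 35.2% of control (log2 -1.51 ± 0.0899, limma adjusted p = 1.38e-09). The scramble for shRNA2 stood at 3357 and 2985 and the shRNA2 libraries at 2972 and 2814, below their own scramble by 0.13 ± 0.0899 (limma adjusted p = 0.258), but well above the other scramble group. Against the mean of both scramble groups, an alternative added after seeing the data, the shRNA2 value turned to 0.33 and passed as higher (limma adjusted p = 0.00252). In MM1.S the counts were 2791 and 2905 with scramble, 2263 and 2163 with shRNA1 and 2492 and 2475 with shRNA2, so every hairpin library lay below the scramble. SNHG5 fell with shRNA1 (-0.36 ± 0.11, edgeR adjusted p = 0.0338), a call that was lost without any 1 of the 6 libraries (edgeR adjusted p from 0.0746 to 0.232), with no filter on low counts (0.0741) and with only the compared groups in the fit (0.0726). With shRNA2 the value of -0.22 ± 0.109 did not pass (edgeR adjusted p = 0.158), while it did with the replicate block (edgeR adjusted p = 0.00543).

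SNHG6, the host of SNORD87, fell with shRNA1 in both lines. H929 had 2771 and 2609 reads in the scramble for shRNA1 and 1105 and 1097 with shRNA1, 41.0% of control (log2 -1.29 ± 0.0884, limma adjusted p = 6.47e-09). The MM1.S libraries had 2382 and 2585 with scramble and 1674 and 1718 with shRNA1, 68.4% of control (-0.55 ± 0.127, edgeR adjusted p = 0.0118). The 2 groups did not overlap in either line. The MM1.S call was lost without shRNA1 replicate 1 or replicate 2 (edgeR adjusted p = 0.0817 and 0.0595). With shRNA2, MM1.S had 2099 and 2445 reads, overlapping the scramble (-0.15 ± 0.126, edgeR adjusted p = 0.393, and 0.048 with the replicate block). H929 with shRNA2 had 3173 and 3126 reads, against 3113 and 2692 in its scramble (0.12 ± 0.0884, limma adjusted p = 0.285).

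SNHG16, the host of the SNORD1 family, fell with shRNA1 and rose with shRNA2 in H929. Its counts there were 1645 and 1743 in the scramble for shRNA1 and 1024 and 1084 with shRNA1, 62.2% of control (log2 -0.68 ± 0.0846, limma adjusted p = 4.55e-06). The scramble for shRNA2 had 2116 and 2009 reads and the shRNA2 libraries 2507 and 2413, a rise of 0.25 ± 0.0846 (limma adjusted p = 0.0234). That rise did not pass without scramble-for-shRNA2 replicate 2 (limma adjusted p = 0.116), without shRNA2 replicate 1 or 2 (0.172 and 0.0888), or with no filter on low values (0.0518). In MM1.S the counts were 2205 and 2078 with scramble, 2214 and 2287 with shRNA1 and 2391 and 2639 with shRNA2. The hairpin libraries stood above the scramble libraries, by 0.07 ± 0.117 and 0.21 ± 0.117 (edgeR adjusted p = 0.649 and 0.188), and with the replicate block shRNA2 passed as higher (edgeR adjusted p = 0.0133).

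SNHG1, whose introns hold a series of box C/D snoRNAs from SNORD22 to SNORD30, had the largest change of the hosts with shRNA1 in MM1.S. It had 5583 and 4753 reads with scramble, 2807 and 2325 with shRNA1 and 3175 and 3034 with shRNA2. Both hairpin groups lay below the scramble without overlap, and SNHG1 fell to 49.8% of control with shRNA1 (log2 -1.01 ± 0.141, edgeR adjusted p = 0.00125) and to 59.3% with shRNA2 (-0.75 ± 0.141, edgeR adjusted p = 0.00479). In H929 it had 1918 and 1873 reads in the scramble for shRNA1 and 1460.2 and 1434 with shRNA1, 76.4% of control (-0.39 ± 0.0819, limma adjusted p = 0.000797). The scramble for shRNA2 had 2897 and 2738 reads and the shRNA2 libraries 1950.2 and 1868, 67.8% of control (-0.56 ± 0.0819, limma adjusted p = 4.76e-05). The shRNA2 libraries were thus apart from their own scramble and close to the scramble for shRNA1. SNHG1 kept its call in all 4 comparisons under every alternative tried and with each library left out, but its H929 values moved. Against the mean of both scramble groups they were -0.67 with shRNA1 and -0.28 with shRNA2 (limma adjusted p = 4.28e-07 and 0.00503).

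Among the box H/ACA hosts, SNHG8, which carries SNORA24, moved in H929 in opposite directions with the 2 hairpins. It had 1458 and 1605 reads in the scramble for shRNA1 and 846 and 962 with shRNA1, 59.0% of control (log2 -0.76 ± 0.099, limma adjusted p = 7.78e-06). The scramble for shRNA2 had 1251 and 1433 reads and the shRNA2 libraries 1583 and 1617, a rise of 0.26 ± 0.099 (limma adjusted p = 0.0467). The rise was lost without scramble-for-shRNA2 replicate 1 (limma adjusted p = 0.302), without shRNA2 replicate 1 or 2 (0.15 and 0.199), with no filter on low values (0.126), and against the mean of both scramble groups, where the value was 0.16 (limma adjusted p = 0.142). MM1.S had 1508 and 1654 reads with scramble, 1525 and 1677 with shRNA1 and 1810.2 and 1742 with shRNA2, and neither value passed (0.02 ± 0.12 and 0.15 ± 0.12, edgeR adjusted p = 0.908 and 0.363).

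SNHG12, the host of SNORA44, SNORA61 and SNORA16A and of the C/D snoRNA SNORD99, fell by a like amount in all 4 comparisons. MM1.S had 1304 and 1171 reads with scramble, 872 and 865 with shRNA1 and 888 and 902 with shRNA2, 70.4% and 71.4% of control (log2 -0.51 ± 0.121 and -0.49 ± 0.121, edgeR adjusted p = 0.0132 and 0.0162). H929 had 830.0 and 900.1 reads in the scramble for shRNA1 and 613 and 693 with shRNA1, 75.4% of control (-0.41 ± 0.104, limma adjusted p = 0.0037). The scramble for shRNA2 had 830.1 and 888 and the shRNA2 libraries 604 and 682, 74.8% of control (-0.42 ± 0.104, limma adjusted p = 0.00422). No hairpin library overlapped its scramble group. The MM1.S calls were lost without scramble replicate 1 (edgeR adjusted p = 0.0683 with shRNA1 and 0.0876 with shRNA2), that with shRNA1 also without either shRNA1 library (0.0958 and 0.0949), and that with shRNA2 also without either shRNA2 library (0.119 and 0.0952). The H929 call with shRNA2 was lost without shRNA2 replicate 1 (limma adjusted p = 0.0835).

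SNHG15, the host of SNORA9, fell with shRNA2 in both lines. It had 519 and 537 reads in the MM1.S scramble, 421 and 463 with shRNA1 and 288 and 334 with shRNA2, 58.2% of control (log2 -0.78 ± 0.15, edgeR adjusted p = 0.00541). H929 had 635 and 681 reads in the scramble for shRNA2 and 414 and 413 with shRNA2, 62.9% of control (-0.67 ± 0.114, limma adjusted p = 0.000205). The MM1.S call was lost without shRNA2 replicate 1 (edgeR adjusted p = 0.0619). With shRNA1 the values were -0.26 ± 0.148 in MM1.S (edgeR adjusted p = 0.209, and 0.0371 with the replicate block) and -0.19 ± 0.114 in H929 (limma adjusted p = 0.173). The H929 libraries with shRNA1 were apart from each other, at 432 and 537, against 543 and 556 in their scramble, and without replicate 2 the value of -0.35 passed (limma adjusted p = 0.0208).

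SNHG7, the host of SNORA17A and SNORA17B, passed in none of the 4 comparisons. Its H929 counts lay between 1500 and 1809 in all 8 libraries, and the values were -0.08 ± 0.0949 with shRNA1 and -0.08 ± 0.0949 with shRNA2 (limma adjusted p = 0.518 and 0.538). MM1.S had 1033 and 1116 reads with scramble, 928.97 and 940 with shRNA1 and 897 and 1042 with shRNA2 (-0.20 ± 0.131 and -0.17 ± 0.131, edgeR adjusted p = 0.264 and 0.349). With the replicate block the shRNA1 value passed as lower (edgeR adjusted p = 0.0322). The replicate block raised the MM1.S calls to 1 host higher and 6 lower with shRNA1, against 28.4% and 30.9% of all genes under the same block. With shRNA2 it gave 3 higher and 5 lower, against 26.8% and 32% of all genes, so the calls of all genes rose too.

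The hairpins were then compared with each other. In H929 the effect of shRNA2 minus that of shRNA1 was above 0 for 6 hosts, with log2 differences of 1.43 ± 0.161 for ZFAS1, 1.41 ± 0.125 for SNHG6, 1.38 ± 0.127 for SNHG5, 1.02 ± 0.14 for SNHG8, 0.94 ± 0.12 for SNHG16 and 0.94 ± 0.125 for GAS5 (limma adjusted p from 3.41e-07 to 2.72e-05). It was below 0 for SNHG15 (-0.48 ± 0.162, limma adjusted p = 0.026), and 41.8% of all genes differed, 20% above and 21.9% below 0. The SNHG15 difference was lost in 5 of the 8 settings that leave out 1 library (limma adjusted p up to 0.102) and with no filter on low values (0.0766). SNHG1, SNHG7 and SNHG12 did not pass, at -0.17 ± 0.116, 0.00 ± 0.134 and -0.01 ± 0.148. In MM1.S, where 36.8% of all genes differed between the hairpins (16.4% higher and 20.4% lower with shRNA2), SNHG6 was higher with shRNA2 (0.40 ± 0.127, edgeR adjusted p = 0.0402) and SNHG15 lower (-0.53 ± 0.15, edgeR adjusted p = 0.0277). Both calls were lost without any 1 of the 4 hairpin libraries (edgeR adjusted p from 0.0655 to 0.27). With the replicate block, ZFAS1 (0.32), SNHG1 (0.26) and SNHG5 (0.14) joined SNHG6 as higher (edgeR adjusted p = 0.0124, 0.00502 and 0.043), and 28.7% of all genes were then higher.

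The 2 scramble groups of H929 differed from each other in 29.9% of all genes, with 16.8% higher and 13.1% lower in the scramble for shRNA2, and 4 hosts were higher in the scramble for shRNA2. SNHG5 differed by 0.93 ± 0.0899 (limma adjusted p = 3.11e-06) and SNHG1 by 0.57 ± 0.0819 (limma adjusted p = 9.77e-05). GAS5 and SNHG16 differed by 0.29 ± 0.0883 and 0.28 ± 0.0846 (limma adjusted p = 0.0224 and 0.0185). The GAS5 call was lost without any 1 of the 4 scramble or 2 shRNA2 libraries (limma adjusted p from 0.0514 to 0.102) and with no filter on low values (0.0616), and that of SNHG16 without replicate 1 of either group (0.104 and 0.0982). The difference between controls of SNHG5 is thus larger than any effect of shRNA2 on it in H929, and that of SNHG1 is as large as its fall with shRNA2. Against the mean of both scramble groups, 9 hosts were lower with shRNA1, against 32.5% of all genes, SNHG15 being the addition (-0.32, limma adjusted p = 0.00997). With shRNA2, 3 hosts were then higher and 3 lower, against 19.3% and 25.1% of all genes. GAS5 (0.20, limma adjusted p = 0.0469) and SNHG5 joined SNHG16 (0.40, limma adjusted p = 0.000396) as higher, and SNHG8 lost its call.

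The effect of shRNA1 differed between the lines for 7 hosts, 6 with a difference above 0 and 1 below, against 21.4% of all genes, 10.4% above and 11% below. MM1.S minus H929, the difference of log2 fold changes was 1.68 ± 0.19 for ZFAS1, 1.14 ± 0.127 for SNHG5, 1.09 ± 0.147 for GAS5, 0.78 ± 0.15 for SNHG8, 0.76 ± 0.125 for SNHG16 and 0.74 ± 0.143 for SNHG6 (limma adjusted p from 6.89e-05 to 0.00283). It was -0.62 ± 0.15 for SNHG1, which fell further in MM1.S (limma adjusted p = 0.0102). These 7 calls held with both other pseudocounts, with no filter on low values, with the replicate block and with each of the 14 libraries left out. Against the mean of both H929 scramble groups the calls above 0 held for the same 6 hosts, while SNHG1 went to -0.34 and did not pass (limma adjusted p = 0.102). For shRNA2, 0 hosts differed between the lines, against 9.75% of all genes (4.34% above and 5.41% below 0), and the nearest was ZFAS1 at 0.60 ± 0.19 (limma adjusted p = 0.0671). ZFAS1 passed with the replicate block (limma adjusted p = 0.00743), without MM1.S scramble replicate 2 (0.039) and without replicate 2 of the H929 scramble for shRNA2 (0.045). Against the mean of both H929 scramble groups, SNHG1 (-0.46, limma adjusted p = 0.0441) and SNHG5 (-0.53, limma adjusted p = 0.00954) passed as below 0, against 8.36% of all genes.

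The 79 cytosolic ribosomal protein genes, the genes whose start type the hosts were grouped by, were measured beside them. Many of them have processed pseudogenes between which the counting could split reads, so single values are uncertain. With shRNA1 in H929, 78 of the 79 fell, against 27.7% of all genes. Their median was -1.14, against -0.01 over all genes. RPS16 (-3.52 ± 0.0903, limma adjusted p = 3.33e-13) and RPS3A (-3.44 ± 0.104, limma adjusted p = 2.23e-12) were further down than any host. With shRNA2 in H929, 14 fell and 2 rose (median -0.04), against 25% and 18% of all genes. In MM1.S, 12 fell and 1 rose with shRNA1 (median -0.24), against 19.7% and 17.8% of all genes. With shRNA2 there, 11 rose and 0 fell (median 0.16), against 14.9% and 21.7%. The shRNA1 effect differed between the lines for 74 of the 79, all above 0 (median 0.99), against 10.4% of all genes above 0. In the second H929 scramble 68 of the 79 were higher than in the first (median 0.35), against 16.8% of all genes. Ribosomal protein genes took 3.31% and 3.69% of all reads in the H929 shRNA1 libraries, against 7.66% and 7.73% in their scramble, 8.82% to 9.21% in the scramble for shRNA2 and 9.44% to 9.60% with shRNA2. The 10 hosts together took 0.0997% and 0.111% with shRNA1 and 0.163% to 0.206% in the other H929 libraries. In MM1.S the shares were 4.44% to 6.06% for the ribosomal protein genes and 0.0777% to 0.0897% for the hosts.

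**Figure D4:**
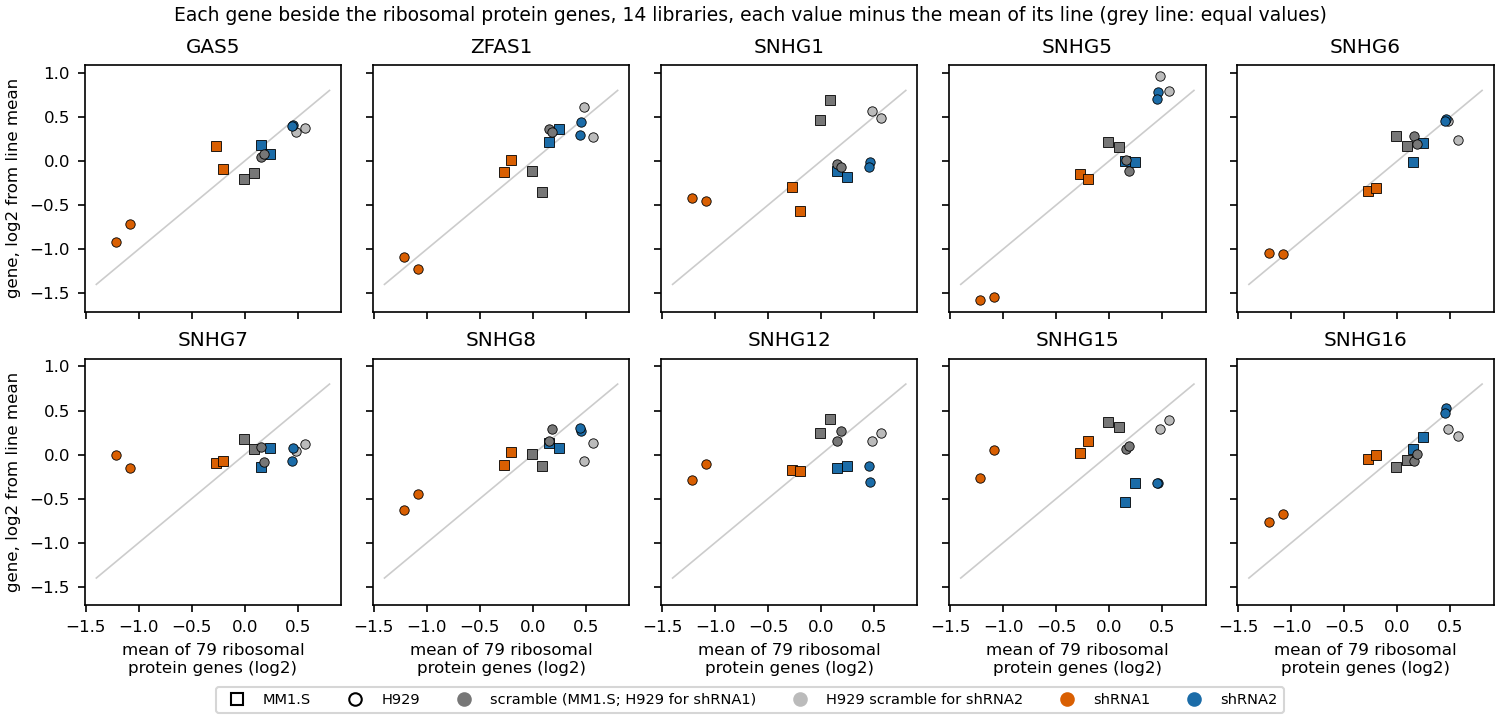
Log2 level of each host in each of the 14 libraries (vertical), against the mean of the 79 ribosomal protein genes (horizontal), both minus the mean of the line, with squares for MM1.S and circles for H929. The H929 shRNA1 libraries, horizontally at -1.22 and -1.08, are the lowest of H929 for GAS5, ZFAS1, SNHG1, SNHG5, SNHG6, SNHG8 and SNHG16. Both lie above the line of equal values for every host but ZFAS1 and SNHG5, and farthest above it for SNHG7, SNHG12 and SNHG15.

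In H929, GAS5, ZFAS1, SNHG1, SNHG5, SNHG6, SNHG8 and SNHG16 were lowest in the libraries where the ribosomal protein genes were lowest. In MM1.S the ribosomal mean was lowest with shRNA1 (-0.27 and -0.20, log2 minus the mean of the line). The lowest library of GAS5, ZFAS1, SNHG8 and SNHG16 was a scramble library there. For GAS5, Pearson's r with the ribosomal mean was 0.993 over the 8 H929 libraries and 0.0511 over the 6 MM1.S libraries, as a description of libraries that share groups. Among the other hosts r ran from 0.258 (SNHG15) to 0.981 (SNHG6) in H929. In MM1.S it ran from -0.462 (SNHG15) to 0.788 (SNHG6), with SNHG16 at 0.575 and SNHG5 at 0.534. SNHG5 was 1.51 lower and SNHG16 0.68 lower in the comparison in which the ribosomal protein median was -1.14, so the hosts spread to both sides of that median. By the run printed in capitals, the values there were -0.41 for SNHG12 with 11 bases, -0.88 for GAS5 and -0.68 for SNHG16 with 6, and -1.50 for ZFAS1, -1.51 for SNHG5 and -0.76 for SNHG8 with 5. SNHG7, with 4 bases, was at -0.08 and SNHG1, with 3, at -0.39. No relation between run and fall was tested. Over the 14 libraries, each centred on its line, the genes most like the mean of the 10 hosts among 9793 genes were RPLP1 (Pearson r = 0.991), RSU1 (0.989), EEF1B2 (0.988), PPA1 (0.988) and DCTD (0.987). RPLP1 encodes a protein of the ribosomal stalk and EEF1B2 an elongation factor subunit that itself hosts snoRNAs. These r values are descriptions, since the libraries share groups and the H929 shRNA1 libraries stand far from the rest.

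Other snoRNA hosts were counted for comparison. Of all genes, 27.7% were lower and 25.7% higher with shRNA1 in H929, and 25% and 18% with shRNA2. In MM1.S, 19.7% of all genes were lower and 17.8% higher with shRNA1, and 21.7% and 14.9% with shRNA2. Of 16 further noncoding hosts tested, 9 fell and 0 rose with shRNA1 in H929 (median -0.47), and 4 fell and 1 rose with shRNA2 there (median -0.02). In MM1.S, 2 fell and 2 rose with shRNA1 (median -0.43) and 3 fell and 2 rose with shRNA2 (median 0.06). Except with shRNA1 in H929, these counts were near or below the shares of all genes. DANCR, a noncoding host known for opposing differentiation, fell by 1.32 ± 0.0996 with shRNA1 in H929 (limma adjusted p = 1.95e-08) and was at -0.07 with shRNA2 there (0.621), and it fell with both hairpins in MM1.S (-0.63 and -0.80, edgeR adjusted p = 0.0094 and 0.0033). SNHG17 and SNHG4 passed as lower in 3 of the 4 comparisons each, with values from -0.77 to -0.41. Of 34 protein-coding hosts, 31 fell with shRNA1 in H929 (median -1.09) and 11 fell and 1 rose with shRNA2. In MM1.S 10 fell with shRNA1 (median -0.28), and 5 fell and 4 rose with shRNA2. In the H929 scramble for shRNA2, 25 of the 34 were higher than in the scramble for shRNA1 and 0 lower (median 0.35), against 16.8% and 13.1% of all genes. Of these 34 hosts 19 are ribosomal protein genes, 55.9% of the host list and 24.1% of the ribosomal list. RPL3 was one of them, at -1.84 and -0.80 with shRNA1 and shRNA2 in H929 (limma adjusted p = 1.68e-10 and 3.8e-06). NCL and NOP56, hosts that encode nucleolar proteins, fell in all 4 comparisons. NCL was at -1.02 and -0.60 in MM1.S (edgeR adjusted p = 0.000328 and 0.0039) and at -0.64 and -0.87 in H929 (limma adjusted p = 2.76e-05 and 2.42e-06).

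Genes of the proteins that package snoRNAs passed as lower in each comparison, and none as higher. Of 18 snoRNP core and assembly genes, 15 fell with shRNA1 in MM1.S (median -0.88), 7 with shRNA2 (median -0.34), 14 with shRNA1 in H929 (median -0.61) and 11 with shRNA2 (median -0.47). Of all genes, 19.7%, 21.7%, 27.7% and 25% were lower in these comparisons, in that order. Between the H929 controls, 16 of the 18 were higher in the scramble for shRNA2 and 0 lower (median 0.55). Of all genes, 16.8% were higher and 13.1% lower there. This median difference between controls is larger in size than the median of -0.47 with shRNA2 in H929, so the H929 values depend on the control used. FBL, the methyltransferase of box C/D particles, fell by 1.66 ± 0.136 and 0.82 ± 0.133 in MM1.S (edgeR adjusted p = 0.000114 and 0.00247). It fell by 1.90 ± 0.0883 and 0.87 ± 0.0883 in H929 (limma adjusted p = 1.09e-10 and 1.17e-06). NHP2, a core protein of box H/ACA particles, was lower at -1.91 and -0.97 in MM1.S (edgeR adjusted p = 0.000222 and 0.00435) and at -1.63 and -0.61 in H929 (limma adjusted p = 1.64e-09 and 0.000129). RUVBL1, an ATPase of the assembly machinery, also passed as lower in all 4, with values from -1.72 to -0.49.

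Genes of the pathways that act on host RNAs were called in both directions, and their counts stand against 37.5% and 36.6% of all genes called with shRNA1 and shRNA2 in MM1.S and 53.4% and 43% in H929. Of 16 nonsense-mediated decay genes, 8 fell and 0 rose with shRNA1 in MM1.S, 1 fell and 2 rose with shRNA2, 7 fell and 1 rose with shRNA1 in H929 and 6 fell and 2 rose with shRNA2. EIF4A3 and MAGOH, parts of the exon junction complex, fell with shRNA1 in MM1.S and with both hairpins in H929, with values from -1.31 to -0.35. Of 16 genes that control the translation of TOP mRNAs, 4 fell and 1 rose with shRNA1 in MM1.S, 3 fell and 1 rose with shRNA2, 5 fell and 7 rose with shRNA1 in H929 and 6 fell and 2 rose with shRNA2. TSC1, an inhibitor of mTOR signalling, rose in all 4, by 0.78 and 0.75 in MM1.S (edgeR adjusted p = 0.00127 and 0.00154) and by 1.20 and 0.61 in H929 (limma adjusted p = 1.71e-06 and 0.00172). PABPC1, a poly(A)-binding protein whose own mRNA has a TOP start, fell in all 4, most with shRNA1 in H929 (-1.80 ± 0.0916, limma adjusted p = 2.43e-10). EIF4EBP1, a repressor of cap-dependent translation, fell in H929, by 1.92 and 0.95 (limma adjusted p = 4.71e-10 and 2.63e-06), and its MM1.S values were -0.65 and 0.06 (edgeR adjusted p = 0.141 and 0.89).

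The snoRNAs themselves are short and lack a poly(A) tail, and few reads were counted on them. The annotation places 26 snoRNA genes inside 9 of the hosts. The same search found 0 inside GAS5, although GAS5 is one of the box C/D hosts, so its snoRNAs were not counted here. SNORD99, in an intron of SNHG12, had 125 reads over the 6 MM1.S libraries and 218 over the 8 H929 libraries. SNORD12B had 33 and 86, SNORD1B 50 and 45, SNORD12C 23 and 51 and SNORD30 7 and 4. The remaining 21 were listed at 0 in all 14 libraries. All 4 snoRNAs that lie in an intron of every host transcript had reads, against 1 of the 22 that overlap an annotated exon of a host transcript, so the zeros went with that overlap. No comparison was made on these reads.

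In the authors' deposited table for shRNA1 in H929, the log2 fold changes are -1.49 for ZFAS1, -1.48 for SNHG5, -1.26 for SNHG6 and -0.88 for GAS5. The authors' deposited table also lists GAS5 at 0.21 with shRNA1 and 0.30 with shRNA2 in MM1.S, with adjusted p of 0.00964 and 0.000115, where the fit used here did not pass. It lists SNHG16 with shRNA2 in MM1.S at 0.23 (adjusted p = 0.0225 in the authors' deposited table) and SNHG5 at -0.20 (adjusted p = 0.0335 in the authors' deposited table), which did not pass here either, and SNHG8 and SNHG16 with shRNA2 in H929 at adjusted p of 0.0769 and 0.0622 in the authors' deposited table, where the fit used here passed.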

How the data were processed

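RNA was measured in 14 libraries, 2 per group. The submitters' processing notes name STAR 2.5.3a, DESeq2 1.24.0 and the build GRCh38 (hg38); the counting tool, annotation release and strand setting are not given in the sources used here. For MM1.S the authors deposited raw counts, by the name of the file, and every value in it was a whole number. The H929 file bears the same name, but what the authors deposited there is a normalized signal, each count divided by a size factor of its library. Multiplied back, 100.0% of its values were whole within 0.01. For each hairpin comparison there is also a deposited table of log2 fold changes with SE, p-values, a mean signal and a test statistic (a score, not used), with the column names DESeq2 gives. Of 58069 rows, 18 repeated identifiers were left out. Per the labels, shRNA2 columns and 1 H929 scramble column could be assigned only by elimination. Fold changes from these columns correlated at 0.997 to 0.999 with the authors' deposited tables for the same hairpin and at 0.34 to 0.56 for the other.

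MM1.S counts were tested with edgeR 4.0.16 (quasi-likelihood F test, TMM, filterByExpr with a minimum count of 10, all 6 libraries in 1 fit, 17820 genes) in R 4.3.3. H929 values were tested with limma 3.58.1 (trend) on log2(value + 1), for the 18213 genes that reached 10 in 2 or more libraries, all 8 libraries in 1 fit. The line difference used limma over 20370 genes and 14 libraries, with MM1.S counts divided by median-of-ratios size factors. The normalised read counts printed are the deposited H929 values and these MM1.S values. H929 and line-difference fold changes are on the log2(value + 1) scale. Benjamini-Hochberg adjusted p under 0.05 over all genes was the threshold, and the tests were two-sided. Levels per length used GENCODE 29 exon lengths (98.96% of identifiers matched). Scripts were tested on simulated data.

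Same-numbered MM1.S libraries deviated together (correlations of 0.499 to 0.769 over 11200 genes), so the numbers can mark pairs. The main fits, those of the line difference included, hold no replicate block and ignore such a pairing. The blocked value is given where a call changed. In H929 the correlations were -0.167 to 0.204, which does not pair them. Replicates differed by more than sampling noise (chi-square per degree of freedom 2.36 to 30.3). Alternatives were another scaling, test, filter, pseudocount, sample set and control, the replicate block, and each library left out. The genes and lists were chosen with earlier results of these data known. Named genes were all 10 hosts, ZBP1, the 5 genes most like the hosts' mean, and up to 3 genes per list with the largest mean change among those called in at least 2 of the 4 hairpin comparisons; overlapping genes, snoRNAs and cell type markers were named for their place or list. Some items are not reported here.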

Additional observations from a re-analysis of the deposited data

Results flagged for a closer look

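The response to shRNA1 differed between the 2 cell lines, by a test of the difference itself, for 7 of the 10 hosts, against 21.4% of all genes. The differences of log2 fold changes, MM1.S minus H929, were 1.68 for ZFAS1, 1.14 for SNHG5, 1.09 for GAS5, 0.78 for SNHG8, 0.76 for SNHG16, 0.74 for SNHG6 and -0.62 for SNHG1. For the first 6 the fall was larger in H929, or was seen in H929 by the test and not in MM1.S, and for SNHG1 it was larger in MM1.S. Against the mean of both H929 scramble groups the SNHG1 difference was -0.34 and did not pass (limma adjusted p = 0.102). The ribosomal protein share of reads and the sum of other cell type markers moved in the same H929 libraries, and their part in these differences was not tested.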

How the results depend on the processing

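All values hold for 2 libraries per group, and many MM1.S calls were lost with 1 library fewer in the fit. With the replicate block, hosts called higher in MM1.S went from 0 to 1 with shRNA1, from 1 to 3 with shRNA2 and from 1 to 4 between the hairpins, hosts called lower with shRNA2 went from 3 to 5, and 1 host differed between the lines with shRNA2. Calls over all genes rose with it, from 37.5% to 59.4%, 36.6% to 58.8% and 36.8% to 58.2% in the 3 MM1.S comparisons. In H929 the numbers did not pair the libraries, and the replicate block left the counts of hosts called at 8 lower with shRNA1 and at 2 higher and 3 lower with shRNA2. With only the compared groups in the fit, 0 hosts were called higher with shRNA2 in MM1.S. With no filter on low values, 0 were called higher with shRNA2 in H929 and 0 lower in the difference between the hairpins there. Against the mean of both H929 scramble groups, SNHG5 with shRNA2 turned from -0.13 to 0.33, and hosts below 0 in the line difference went from 1 to 0 with shRNA1 and from 0 to 2 with shRNA2. With 1 library left out, and a lone library assumed to vary like the other groups, hosts called lower with shRNA1 ranged from 1 to 3 in MM1.S and from 8 to 9 in H929. With shRNA2 they ranged from 1 to 3 lower and 0 to 1 higher in MM1.S, and from 2 to 3 lower and 0 to 2 higher in H929. Between the hairpins they ranged from 0 to 1 in each direction in MM1.S, and in H929 stayed at 6 higher and ranged from 0 to 1 lower. Between the H929 scramble groups they ranged from 2 to 5. For the line difference they stayed at 6 higher and 1 lower with shRNA1 and ranged from 0 to 1 with shRNA2. Values near 0 changed sign in this check for SNHG8 with shRNA1 in MM1.S (range -0.05188 to 0.128, negative without scramble replicate 1 and without shRNA1 replicate 2), SNHG7 with shRNA1 in H929 (-0.164 to 0.009953, above 0 without replicate 1 of its scramble) and ZFAS1 with shRNA2 in H929 (-0.244 to 0.0969, above 0 without replicate 1 of its scramble), and for the SNHG5 line difference with shRNA2 (-0.1514 to 0.01826, above 0 without replicate 2 of the H929 scramble for shRNA2). The cause was not tested. Of the other alternatives, 98 of 108 counts of hosts called stayed within 1.5 times. Counts were deep enough for every host, the lowest being 276 reads, for SNHG15.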
